A study of Mus musculus with 6 samples.

Results

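Somatotropes are the cells of the anterior pituitary that make and release growth hormone, and their transcript profile is described here from 3 libraries of sorted somatotropes out of 6 libraries in the study. The 3 libraries were chosen by their labels, and each gene symbol kept the row whose mean over all 6 columns was highest, which gave 22869 genes. All 6 libraries came from pituitaries of female mice for which no treatment is named, a cross of the strains CD1 and C57BL/6 (labelled CD1 x C57BL/6 hybrid), aged 6 to 8 weeks. Cells were separated by fluorescence-activated cell sorting, and the other 3 libraries held lactotropes, the cells that make prolactin. The labels call the libraries of each cell type biological replicates 1 to 3. The sources used here do not give the marker or gate of the sort or the number of animals behind a library, so every spread and p-value below measures these samples. Levels are FPKM, fragments divided by transcript length and by the mapped fragments of the library, which lets genes be ranked within a library.

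Growth hormone release is driven by growth hormone-releasing hormone from the hypothalamus, which binds the receptor GHRHR, acts through the stimulatory G protein and raises cyclic AMP. It is restrained by somatostatin, and the gut peptide ghrelin promotes it through its own receptor. The transcription factor POU1F1 is needed for somatotropes, lactotropes and thyrotropes to form, and it drives the growth hormone and prolactin genes themselves.

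The somatotrope libraries were not alike, and this bears on every level below. Between 14272 and 18592 genes had a value above 0 in a somatotrope library, against 11318 to 16454 in a lactotrope library. Somatotrope 1 had a correlation across genes of log2(FPKM + 1) of 0.93 with lactotrope 1, but of 0.66 and 0.68 with somatotropes 2 and 3, and the latter 2 had a correlation of 0.85 with each other. Genes are not independent replicates, so these correlations are descriptions. Of 3692 genes averaging 10 FPKM or more over the somatotropes, 65.6% were highest in somatotrope 1. A highest value there is therefore no trait of a single gene. In somatotrope 1 the low single-exon rows lay on whole fragments, which puts its depth at 29.3 in units of 1e6 fragments, so that 1 fragment in a transcript of 1 kilobase is worth 0.0342 FPKM. The depths of somatotropes 2 and 3 could not be recovered in this way. In bulk samples such as these, fewer cells of a type and less RNA per cell cannot be told apart.

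Summed FPKM was concentrated in a few genes. Growth hormone (Gh, NM_008117, mm9 chr11:106161582-106163124, minus strand) ranked first in each somatotrope library and made up 27.4%, 9.95% and 20.1% of the summed FPKM of somatotropes 1, 2 and 3. The 10 highest genes held 33.7%, 29.2% and 42.0% of the sum, and the 100 highest held 42.2%, 42.4% and 53.8%. Overlapping rows are each counted in these sums, among them Mir5107, at 14162 FPKM in somatotrope 2, and Cd74, inside which it lies. The number of genes that made up 50% of the sum was 292, 253 and 50, so the profile of somatotrope 3 was the most concentrated. At 100 FPKM or more stood 271, 154 and 156 genes, and at 1 FPKM or more 11962, 10187 and 9913. A level of at least 1 FPKM in each of the 3 libraries was held by 8345 of the 22869 genes (36.5%), and 593 (2.59%) ranked in the top 5 percent, that is at rank 1143 or better, in each of them. Over somatotropes 2 and 3 alone these counts were 8777 and 850.

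**Figure D1:**
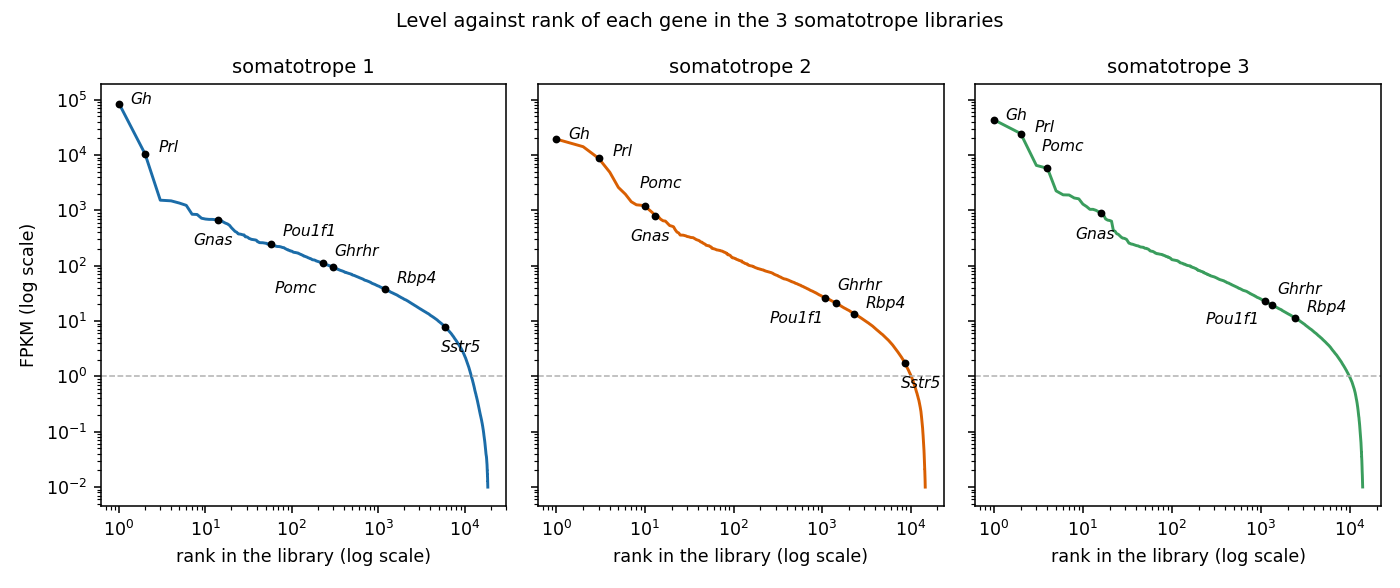
Level in FPKM (vertical, log scale) against the rank of each gene within its library (horizontal, log scale) for somatotropes 1, 2 and 3, with named genes as black points and a dashed line at 1 FPKM. Gh ranks first in each panel, Gnas stands at ranks 13 to 16 in each, and Pou1f1 and Ghrhr stand further to the left in somatotrope 1 than in the other libraries.

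The genes just below Gh were a mixed group. Prolactin (Prl) ranked 2, 3 and 2, with the short row Mir5107, treated below, at rank 2 in somatotrope 2. Of the 30 genes with the highest mean log2 level, several belong to antigen presentation rather than to hormone cells: Cd74, the invariant chain of the class II complex, stood at 224, 4897 and 2252 FPKM in somatotropes 1, 2 and 3, and H2-Ab1, a class II chain, at 57.6, 2605 and 1045. These genes were low in somatotrope 1 and high in the other libraries. Others of the 30 are widely expressed. Itm2b, which encodes a membrane protein cleaved by furin, stood at 1232, 694 and 638 FPKM, and Fth1, the ferritin heavy chain that stores iron, at 843, 358 and 1005. Nnat, an imprinted gene of neuroendocrine tissue, stood at 1529, 223 and 1174, lowest in somatotrope 2.

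Of the 30 highest rows, 3 were microRNA precursors under 200 bases that lie inside a longer gene on the same strand: Mir5107 inside Cd74, Mir1892 inside 1110002B05Rik and Mir704 inside Pdia4. Mir5107, with 88 bases, stood at 680, 14162 and 6501 FPKM, in the order of the Cd74 values. Fragments of such a row and of its host cannot be told apart in these files, so these rows are not read as microRNA levels. The same holds for H2-D1 and LOC547349, whose rows overlap on chromosome 17.

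The 4 genes that mark somatotropes were all above 10 FPKM in the 3 libraries. Gh stood at 84909, 19384 and 43379 FPKM in somatotropes 1, 2 and 3 (mean 49224 ± 33151 SD, n = 3). Ghrhr, the receptor of growth hormone-releasing hormone, stood at 110, 26.3 and 22.6 FPKM, and ranked 227, 1087 and 1128. Pou1f1, the lineage factor, stood at 245, 21.0 and 19.9 FPKM, and ranked 57, 1437 and 1321. All of these were highest in somatotrope 1, and so was Rbp4, which encodes the plasma carrier of retinol, at 38.1, 13.6 and 11.6 FPKM. The same held for 65.6% of all genes averaging 10 FPKM or more. Between libraries Pou1f1 ranged 12.3-fold and Gh 4.38-fold. Of the 4, Gh and Ghrhr were higher in each somatotrope than in each lactotrope, where Gh stood at 3954, 6856 and 7623 FPKM and Ghrhr at 9.05, 2.88 and 0. Of the 11642 genes compared, those averaging 1 FPKM or more across the study, 2.51% were higher in this way and 1.15% lower. Pou1f1, at 258, 34.6 and 66.7 in the lactotropes, and Rbp4, at 24.3, 3.18 and 5.08, overlapped between the cell types.

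POU1F1 binds an AT-rich element, and its own gene and Prl are textbook targets, so the 250 bases before the start of both are shown (RefSeq, GRCm38.p6, plus strand, 5′ to 3′). Capitals mark matches, on either strand, of TATNCAT, a core of the POU1F1 element, and of TGACG, the first bases of the cyclic AMP response element; no match overlaps another. Of 32851 promoter windows of this length in the RefSeq table, 7.92% hold the POU1F1 core and 17.8% the cyclic AMP letters. The Pou1f1 window, before the outermost of its 2 listed starts, lies at chr16:65520262-65520511, and the Prl window at chr13:27057320-27057569.
Pou1f1: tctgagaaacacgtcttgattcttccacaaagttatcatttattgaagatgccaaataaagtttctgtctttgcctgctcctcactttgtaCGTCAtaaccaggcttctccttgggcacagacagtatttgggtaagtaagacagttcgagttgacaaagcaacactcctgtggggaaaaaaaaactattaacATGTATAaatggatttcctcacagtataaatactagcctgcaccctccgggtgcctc
Prl: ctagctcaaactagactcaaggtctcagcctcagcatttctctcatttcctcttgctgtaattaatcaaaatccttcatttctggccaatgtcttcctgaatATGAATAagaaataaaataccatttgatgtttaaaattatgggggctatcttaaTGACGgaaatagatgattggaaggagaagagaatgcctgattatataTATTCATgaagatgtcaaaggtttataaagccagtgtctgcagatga
The Pou1f1 window holds 1 POU1F1 core, ATGTATA, whose first base lies at -57 from the start, and 1 cyclic AMP match at -159. The Prl window holds 2 cores, ATGAATA at -148 and TATTCAT at -47, and 1 cyclic AMP match at -94. These are matches of letters in a reference sequence, and binding was not measured.

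Among secreted products, 6 of 7 pituitary hormone genes stood at 1 FPKM or more in each somatotrope library (all genes 36.5%). In the top 5 percent of each ranked 4 of 7 (Gh, Prl, Pomc and Cga), against 2.59% of all genes. Prl stood at 10464, 8709 and 24481 FPKM, highest in somatotrope 3, and below all 3 lactotropes, as were 1.15% of the 11642 genes compared. Pomc, the precursor of corticotropin and melanocyte-stimulating hormone, stood at 93.6, 1209 and 5758 FPKM. It ranked 300, 10 and 4, so that in somatotrope 3 it was exceeded by only 3 rows. Cga, the alpha subunit shared by thyrotropin and the gonadotropins, stood at 369, 297 and 1675 FPKM.

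The beta subunits of those hormones were lower. Tshb, of thyrotropin, stood at 44.5, 11.2 and 52.4 FPKM, Lhb, of luteinizing hormone, at 2.15, 8.37 and 77.7, and Fshb, of follicle-stimulating hormone, at 1.82, 0.451 and 19.1. Of the 6 hormone genes averaging 10 FPKM or more, 5 were highest in somatotrope 3, and Gh alone was highest in somatotrope 1. Over all 3692 genes of that level, 9.80% were highest in somatotrope 3 and 65.6% in somatotrope 1.

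The other markers of the cells that make these hormones did not share a single order. Without Pomc, the 7 remaining corticotrope and melanotrope markers summed to 3.73, 7.13 and 25.6 FPKM, with Tbx19, the factor that defines those cells, at 1.16, 3.48 and 10.3. Without Lhb and Fshb, the 5 remaining gonadotrope markers summed to 4.76, 3.23 and 8.52, with Dmp1 at 0 in each library. Without Cga and Tshb, the 4 remaining thyrotrope markers summed to 11.5, 0.3585 and 1.71. The first list and the second were highest in somatotrope 3, and the third in somatotrope 1. The part of these cells in the hormone levels was not tested.

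Granins and prohormone processing genes, which package hormones into granules and cut and trim peptides there, were widely present. Of 14, 11 stood at 1 FPKM or more in each library (all genes 36.5%). In the top 5 percent stood 4 (Scg5, Cpe, Chgb and Scg2), against 2.59% of all genes. Scg5, the chaperone of a prohormone convertase, stood at 485, 182 and 255 FPKM. Cpe, which trims basic residues from cut peptides, stood at 295, 274 and 200, a 1.47-fold range as deposited. Chgb stood at 222, 75.1 and 307 FPKM and Scg2 at 175, 60.7 and 206. Both of these granins were lowest in somatotrope 2, as was Chga at 31.7, 10.2 and 73.1. The convertases that cut the precursors were lower: Pcsk1 stood at 46.5, 2.49 and 14.1 FPKM, Pcsk2 at 0.663, 0.641 and 4.46, and Furin at 3.69, 3.10 and 2.95.

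Neuropeptide genes mostly stood under 1 FPKM in at least 1 library. Of 24, only Gal, Penk and Nmb stood at 1 FPKM or more in each library (12.5%, all genes 36.5%). Listed at 0 in all 3 were 4 of the 24 (Npy, Nts, Sst and Trh), against 3792 of all 22869 genes. Galanin (Gal) stood at 537, 97.1 and 61.5 FPKM, and proenkephalin (Penk), the precursor of the enkephalins, at 83.1, 6.22 and 21.8. Both were highest in somatotrope 1, as were 65.6% of all genes averaging 10 FPKM or more. Nmb, neuromedin B, was low throughout at 2.34, 4.75 and 3.84 FPKM.

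Of 40 growth factor and cytokine genes, 15 (37.5%) stood at 1 FPKM or more in each library, close to the 36.5% of all genes. Only Dlk1 ranked in the top 5 percent in each (2.5%, all genes 2.59%). Dlk1, a membrane-bound and shed regulator of growth, stood at 88.1, 35.3 and 69.3 FPKM. Midkine (Mdk), a heparin-binding factor, stood at 7.17, 174 and 56.8, and its relative pleiotrophin (Ptn) at 25.5, 23.4 and 15.8. Mdk ranged 24.3-fold between libraries and Ptn 1.61-fold. Mif, a cytokine, stood at 23.0, 38.4 and 47.3 FPKM. Fgf13, a member of the fibroblast growth factor family that stays inside the cell, stood at 12.5, 6.65 and 6.46. Igf1, the hormone through which growth hormone acts on many tissues, stood at 4.06, 1.81 and 0.0693 FPKM.

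Of 28 secreted binding proteins, carriers and inhibitors, 17 stood at 1 FPKM or more in each library (60.7%, all genes 36.5%). The highest by mean log2 level was Cst3, an inhibitor of cathepsins, at 362, 640 and 946 FPKM. Apoe, a lipid carrier, stood at 72.9, 1963 and 1298, Mia1, a small secreted protein, at 127, 1432 and 843, and Clu, an extracellular chaperone, at 86.8, 405 and 298. All 4 were lowest in somatotrope 1, and 13 of the 14 genes of this list averaging at least 10 FPKM were highest in somatotrope 2 or 3, against 24.6% and 9.80% of all genes of that level in these libraries. Apoe is abundant in macrophages, and Mia1 is 1 of 15 genes listed as markers of stem and folliculostellate cells. Without Mia1 and Sox9, the 13 remaining of those markers summed to 238, 1328 and 591 FPKM, and the 26 leukocyte markers, which do not include Apoe, to 461, 10327 and 5451, both lowest in somatotrope 1. Their part in these values was not tested. Among insulin-like growth factor binding proteins, Igfbp5 stood at 26.3, 56.3 and 42.1 FPKM and Igfbp2 at 1.34, 31.6 and 37.6.

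**Figure D2:**
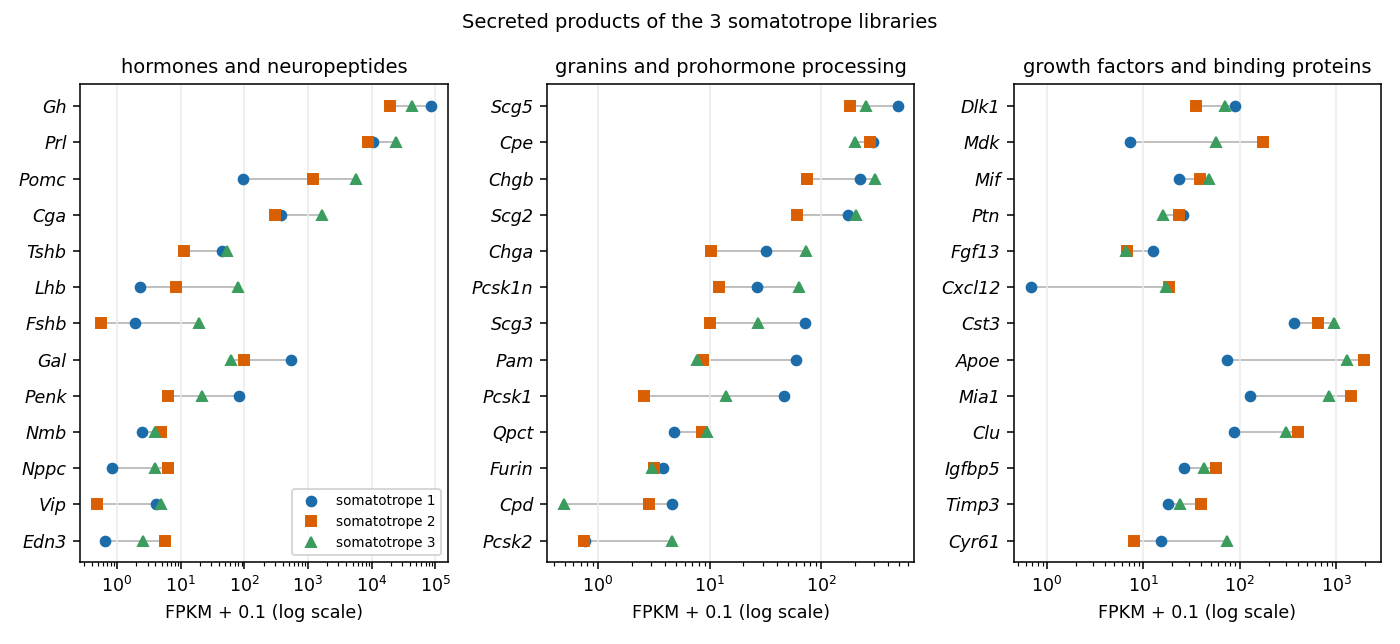
FPKM + 0.1 (horizontal, log scale) of secreted products in somatotropes 1 (circles), 2 (squares) and 3 (triangles), with a grey line from the lowest to the highest library. Cpe and Ptn have short lines, while Pomc, Mdk and Apoe span more than 20-fold between libraries.

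Receptors for hypothalamic hormones and neuropeptides were sparse, and Ghrhr stood far above the rest. Of 28 such receptors, only Ghrhr and Gnrhr, the receptor of gonadotropin-releasing hormone, stood at 1 FPKM or more in each library, against 36.5% of all genes. Gnrhr stood at 3.20, 1.64 and 5.91 FPKM. Over somatotropes 2 and 3 alone 4 of the 28 did so, against 8777 of all 22869 genes. Listed at 0 in all 3 libraries were 5 of the 28 (Crhr2, Drd4, Galr2, Nmbr and Sstr4), against 3792 of all 22869 genes.

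The receptors that oppose or assist GHRHR stood below it in each library. Among somatostatin receptors Sstr5 was the highest, at 7.92, 1.74 and 0 FPKM. Sstr2 stood at 3.02, 0 and 0, and Sstr3 at 3.26, 0.0138 and 0. All 3 were highest in somatotrope 1, as were 65.6% of all genes averaging 10 FPKM or more, a level that these 3 did not reach. None of the 3 had a value above 0 in somatotrope 3. Ghsr, the ghrelin receptor, stood at 0.278, 0 and 0.304 FPKM. Drd2, the dopamine receptor that restrains lactotropes, stood at 0.464, 1.40 and 1.49, below each of the lactotropes at 11.9, 2.51 and 3.29. Of the 11642 genes compared, 1.15% were lower in this way. Adcyap1r1, a receptor of pituitary adenylate cyclase-activating peptide, stood at 0.977, 3.50 and 0.891.

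Of 32 growth factor and cytokine receptors, 13 stood at 1 FPKM or more in each library (40.6%, all genes 36.5%). None ranked in the top 5 percent in each (all genes 2.59%). Ifngr1, a chain of the interferon gamma receptor, had the highest mean log2 level, at 11.2, 32.1 and 18.5 FPKM. Il6st, the signalling chain shared by interleukin 6 and its relatives, stood at 21.5, 25.9 and 8.54. Ntrk2, a neurotrophin receptor, stood at 9.77, 26.2 and 17.3. Ghr, the growth hormone receptor itself, was present at 1.35, 2.99 and 2.92 FPKM. The receptors of insulin-like growth factor 1 and insulin were lower in somatotropes 2 and 3: Igf1r stood at 2.54, 0.798 and 0.548, and Insr at 2.64, 0.176 and 1.03.

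Of 30 amine, GABA, glutamate and purine receptors, 6 stood at 1 FPKM or more in each library (20%, all genes 36.5%). P2rx4, an ATP-gated channel also found in macrophages, stood at 12.4, 32.1 and 13.6 FPKM. Gabrb1, a beta subunit of the GABA-A receptor, stood at 22.9, 2.15 and 4.52. It was highest in somatotrope 1, as were 65.6% of all genes averaging 10 FPKM or more, a level it fell just short of. An alpha subunit, Gabra2, stood at 0.543, 0 and 0 FPKM in the somatotropes and at 10.5, 0.785 and 8.02 in the lactotropes. The groups did not overlap, though narrowly, and 1.15% of the 11642 genes compared were lower in this way.

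Of 35 nuclear receptors, 17 stood at 1 FPKM or more in each library (48.6%, all genes 36.5%). None ranked in the top 5 percent of each (all genes 2.59%). Nr4a1, an inducible orphan receptor, stood at 24.0, 18.0 and 33.7 FPKM. Nr1d1, a repressor of the circadian clock, stood at 14.2, 11.0 and 13.1 and ranged only 1.29-fold, and Rxrb, a partner of many receptors, stood at 11.7, 9.37 and 10.6. Its relative Rxrg stood at 47.0, 6.43 and 2.80, and the glucocorticoid receptor Nr3c1 at 24.0, 9.60 and 4.85. The thyroid hormone receptor Thra stood at 6.56, 5.64 and 4.95 FPKM and Thrb at 15.7, 4.39 and 1.02. Esr1, the oestrogen receptor alpha, stood at 19.9, 0.402 and 1.81. Rxrg, Nr3c1, Thrb and Esr1 were therefore each highest in somatotrope 1, as were 65.6% of all genes averaging 10 FPKM or more. Thrb and Esr1 averaged less than that. Nr1d1, Rxrb and Thra stood at like levels in all 3 libraries only as deposited. Nr1d1 ranked 3622, 2845 and 2108. After median-ratio scaling, which divides somatotrope 1 by 1.64 and the others by less than 1, 0 of 9 nuclear receptors averaging 10 FPKM or more ranged at most 1.5-fold.

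Of 45 ion channel genes, 9 stood at 1 FPKM or more in each library (all genes 36.5%) and 3 had a mean of at least 10 FPKM. The median level of the list was 1.98, 0.404 and 0.729 FPKM, against 1.28, 0.591 and 0.525 over all genes. Kcnk1, a background potassium channel, stood at 23.3, 68.6 and 28.9 FPKM in the somatotropes and at 13.7, 17.5 and 1.73 in the lactotropes. The groups did not overlap, and 2.51% of the 11642 genes compared were higher in this way. Kcnk2, another channel of this class, stood at 28.7, 4.43 and 5.27. Kcnmb4, an accessory subunit of the large-conductance calcium-activated potassium channel, stood at 23.5, 2.31 and 4.72, and the pore subunit Kcnma1 at 8.12, 4.81 and 4.12. Cacnb3, an accessory subunit of calcium channels, stood at 10.8, 11.5 and 6.02 FPKM.

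**Figure D3:**
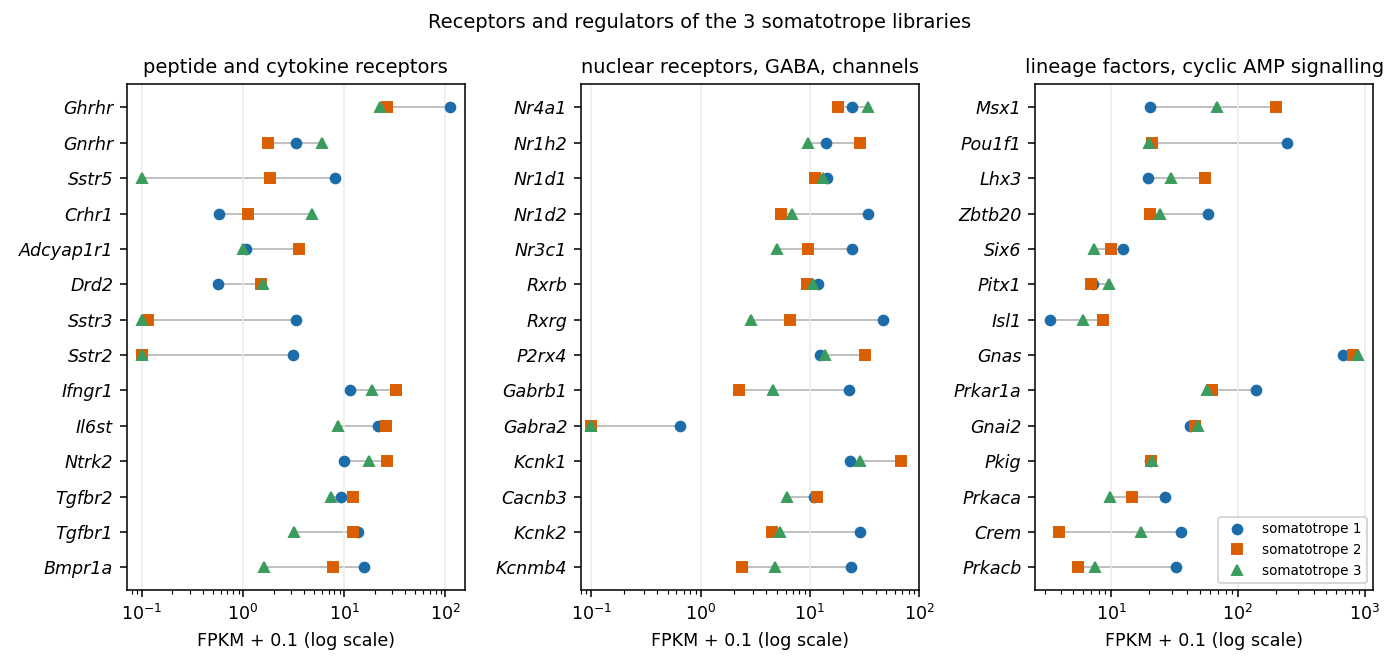
FPKM + 0.1 (horizontal, log scale) of receptors, channels, lineage factors and cyclic AMP genes in somatotropes 1 (circles), 2 (squares) and 3 (triangles), with a grey line from the lowest to the highest library. Ghrhr lies to the right of the other peptide receptors, and Gnas, Gnai2 and Pkig have short lines.

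Of 47 lineage transcription factors, 23 stood at 1 FPKM or more in each library (48.9%, all genes 36.5%). Listed at 0 in all 3 were 5 (Foxa2, Lhx2, Lhx4, Neurod2 and Nkx2-2), against 3792 of all 22869 genes. Msx1, a homeobox repressor, had the highest mean log2 level at 20.2, 201 and 68.6 FPKM. Lhx3, a LIM homeobox factor of early pituitary development, stood at 19.5, 54.5 and 29.8, and Zbtb20, a zinc finger factor, at 57.8, 20.3 and 24.1.

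The order of the factors differed by library. Pou1f1 and Neurod4, a basic helix-loop-helix factor, at 52.9, 1.89 and 1.87 FPKM, were highest in somatotrope 1. Msx1, Lhx3, Isl1 at 3.22, 8.49 and 5.95, and Sox9 at 1.53, 11.8 and 3.81 were highest in somatotrope 2. The sum of the stem and folliculostellate markers without Sox9 and Mia1, given above, was also highest in somatotrope 2, and the part of those cells in the Msx1, Lhx3, Isl1 and Sox9 values was not tested. Six6 and Pitx1 had narrower ranges as deposited, at 12.2, 9.81 and 7.20 and at 7.07, 6.88 and 9.46 FPKM.

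The pathway below GHRHR was led by the row of Gnas, the gene of the stimulatory G protein alpha subunit. The row kept for this symbol is a non-coding RefSeq transcript (mm9 chr2:174153415-174172243, plus strand). The share of the coding transcript was not tested, so the Gnas values here are read as levels of that row only. Gnas stood at 673, 808 and 886 FPKM (mean 789 ± 108 SD, n = 3), ranked 14, 13 and 16, and ranged 1.32-fold between libraries as deposited. All 3 values lay above those of the lactotropes at 630, 533 and 523, as did those of 2.51% of the 11642 genes compared. Of 44 genes of cyclic AMP signalling, 26 stood at 1 FPKM or more in each library (59.1%, all genes 36.5%). In the top 5 percent stood 3 (6.82%, all genes 2.59%). Prkar1a, a regulatory subunit of protein kinase A, stood at 139, 62.7 and 57.3 FPKM, and the catalytic subunits Prkaca and Prkacb at 26.6, 14.6 and 9.77 and at 32.3, 5.42 and 7.40. The inhibitory G protein gene Gnai2 stood at 41.9, 45.9 and 48.6 FPKM, and Pkig, an inhibitor of protein kinase A, at 20.3, 20.5 and 20.9. Gnas, Gnai2 and Pkig, and Cpe above, ranged at most 1.5-fold only as deposited, and not after median-ratio scaling.

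Adenylyl cyclases and nuclear targets were lower. Adcy2 and Adcy6, the only cyclases of the list at 1 FPKM or more in each library, stood at 9.26, 1.33 and 2.11 and at 9.59, 1.54 and 1.28. Creb1, the factor that protein kinase A phosphorylates, stood at 7.62, 1.01 and 0.472 FPKM, and Crem, its relative, at 35.3, 3.81 and 17.2. Each of these 4 genes was highest in somatotrope 1, as were 65.6% of all genes averaging 10 FPKM or more. Of the 4, only Crem averaged that much, and no share was computed for lower genes.

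Growth hormone itself signals through JAK2 and STAT5, and suppressors of that route are induced by it. Of 20 genes of JAK-STAT signalling and its inhibitors, 16 stood at 1 FPKM or more in each library (80.0%, all genes 36.5%). Socs2 stood at 18.6, 21.0 and 12.0 FPKM, above each lactotrope value (2.51% of the 11642 genes compared), and Cish at 18.4, 6.54 and 4.02. Stat5b, Stat5a and Jak2 stood at 17.7, 3.69 and 1.95, at 18.1, 2.16 and 5.42, and at 9.30, 2.95 and 4.75. Those 3 were highest in somatotrope 1, as were 65.6% of all genes averaging 10 FPKM or more, though the 3 averaged less than that. Socs2 had a 1.75-fold range.

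Of 40 exocytosis genes, 24 stood at 1 FPKM or more in each library (60%, all genes 36.5%). In the top 5 percent stood 3 (7.5%, all genes 2.59%). The neuronal-type fusion protein Snap25 stood at 166, 16.1 and 43.9 FPKM and the granule protein Sytl4 at 110, 8.61 and 11.8. Both were more than 3-fold higher in somatotrope 1 than in the other libraries. Vamp8, at 75.4, 106 and 73.3, and the synaptotagmin Syt5, at 24.1, 21.6 and 17.6, were the only 2 steady members in the deposited FPKM. Syt5 lay above each lactotrope value of 17.1, 10.9 and 7.34 FPKM, as did 2.51% of the 11642 genes compared.

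Genes of endoplasmic reticulum entry and folding, through which every secreted hormone passes, were abundant. Of 43, 39 stood at 1 FPKM or more in each library (all genes 36.5%) and 20 in the top 5 percent, against 2.59% of all genes. The chaperone Hspa5 stood at 1355, 312 and 234 FPKM, and Pdia3, a disulphide isomerase, at 852, 157 and 191. Xbp1, a regulator of the secretory apparatus, stood at 220, 81.5 and 72.6. Of 35 members with a mean of at least 10 FPKM, 34 were highest in somatotrope 1, against 65.6% of all genes of that level. In somatotrope 1, 30 of the 35 were at least 2-fold above both other libraries, against 1147 of 3692 genes. The median ratio of somatotrope 1 to the mean of the other libraries was 4.003 for these 35 genes and 1.60 over all 3692.

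Steadiness was read from the ratio of the highest to the lowest of the 3 libraries, among the 3692 genes that averaged 10 FPKM or more. In the deposited FPKM, 528 of them (14.3%) were steady, meaning a ratio of at most 1.5. Reep5 and Capns1 lay just inside that limit at 1.498, and Sqstm1 and Pygb just outside at 1.502 and 1.503. The median ratio of all 3692 genes was 2.63. Without somatotrope 1, 1539 genes were steady. The share was 13.4% at a mean of 10 to 20 FPKM, 14.2% at 20 to 50, 19.4% at 50 to 100 and 14.6% from 100 upwards, so it did not rise in step with the level.

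Which genes were steady depended on the scale. Median-ratio scaling of the 3 libraries, with size factors of 1.64, 0.874 and 0.767, left 561 of 3452 genes steady (16.3%), and ranks in place of levels left 560 of 3692 (15.2%). The counts were close, but only 20 genes were steady both as deposited and after scaling. The rank-based set shared 107 genes with the deposited one and 360 with the scaled one. The same 20 genes were steady in all of these ways. Among them were Epcam, an epithelial adhesion molecule, at 146, 99.0 and 100.3 FPKM, Ndufa1, a subunit of respiratory complex I, at 174, 135 and 120, and Psma1, a proteasome subunit, at 73.2, 58.4 and 50.3. Others were Gpx4, which reduces lipid peroxides, at 19.0, 13.6 and 13.2, Actr3, of the actin-nucleating complex, at 33.7, 24.9 and 23.4, and Oaz1, which restrains polyamine synthesis, at 25.1, 17.9 and 17.5. In each of these 6 the highest library was somatotrope 1. Passing both limits requires this, because the size factors of somatotropes 1 and 3 differ by more than 1.5-fold. Few genes can therefore pass both, and those that do lie close to both limits. Capns1 had a ratio of 1.498 as deposited and 1.42 after scaling, and Bckdk of 1.43 and 1.49. These genes passed a limit set on their own values, so their steadiness is a description.

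As deposited, the steadiest genes were of low to moderate level. 2310044H10Rik stood at 29.2, 29.3 and 29.5 FPKM, Exosc2, of the RNA exosome, at 12.2, 12.1 and 12.4, and Polr2j, an RNA polymerase II subunit, at 29.5, 29.3 and 30.1. Pkig, named above, was the third of the steadiest. Rcn2, a calcium-binding protein of the endoplasmic reticulum, stood at 58.8, 59.0 and 56.4, and Ndufa4, a respiratory chain protein and the most abundant of the 15 steadiest, at 127, 135 and 127. After scaling none of these was steady, because the scaling divides somatotrope 1 by 1.64 and the others by less than 1. The steadiest gene after scaling was Cct5, a subunit of a cytosolic chaperonin, deposited at 85.3, 45.6 and 39.8 FPKM and scaled to 52.1, 52.1 and 51.9.

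Steadiness in the somatotropes went with a narrower range in the lactotropes. Of the 528 steady genes, 76 (14.4%) also lay within 1.5-fold over the 3 lactotropes, against 138 of the 3164 other genes (4.36%). The median ratio of highest to lowest over the lactotropes was 2.03 for the steady genes and 3.71 for the others. Libraries of the same number deviated together from their group means, least so for number 3, so the 2 cell types do not give independent views of steadiness.

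Lists differed in their share of steady members, which was 14.3% over all genes as deposited. Of 67 respiratory chain and ATP synthase genes averaging 10 FPKM or more, 25 were steady (37.3%), with Ndufa4, Ndufa1 and Ndufa3, the last at 93.7, 95.1 and 114 FPKM, among them. Of 31 proteasome genes 8 were steady (25.8%), among them Psmc5 at 43.6, 41.0 and 46.6 and Psma7 at 107, 106 and 87.3. Of 26 genes often used as references 6 were steady (23.1%): Ubb at 569, 649 and 435, Ppib at 57.4, 52.6 and 55.8, Chmp2a, Cyc1, Gpi1 and Reep5. Other references ranged widely: Actb stood at 62.8, 29.9 and 182 FPKM and Eef1a1 at 1488, 50.9 and 127.

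At the other end, 1 of 57 cytosolic ribosomal protein genes was steady (Rpl26, at 26.1, 22.9 and 19.4 FPKM). At least 2-fold higher in somatotrope 1 than in both others were 49 of the 57, against 1147 of 3692 genes. Rps14 stood at 375, 56.4 and 95.3 and Rpl4 at 417, 41.8 and 80.6. Many ribosomal protein genes have processed pseudogenes, and the sources used here do not say how fragments were shared among copies. The median ratio of somatotrope 1 to the mean of the others was 4.91 for these 57 genes. After scaling, 8 of 67 respiratory chain genes (11.9%), 7 of 31 proteasome genes (22.6%), 1 of 26 references (3.85%), 0 of 48 ribosomal protein genes and 6 of 35 endoplasmic reticulum genes (17.1%) were steady. The respiratory chain share thus stood above that of all genes as deposited and below it after scaling. The proteasome share stood above it on each scale, by few genes, with 7 of 31 also by ranks. The scales reuse the same values, so they are not separate support.

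**Figure D4:**
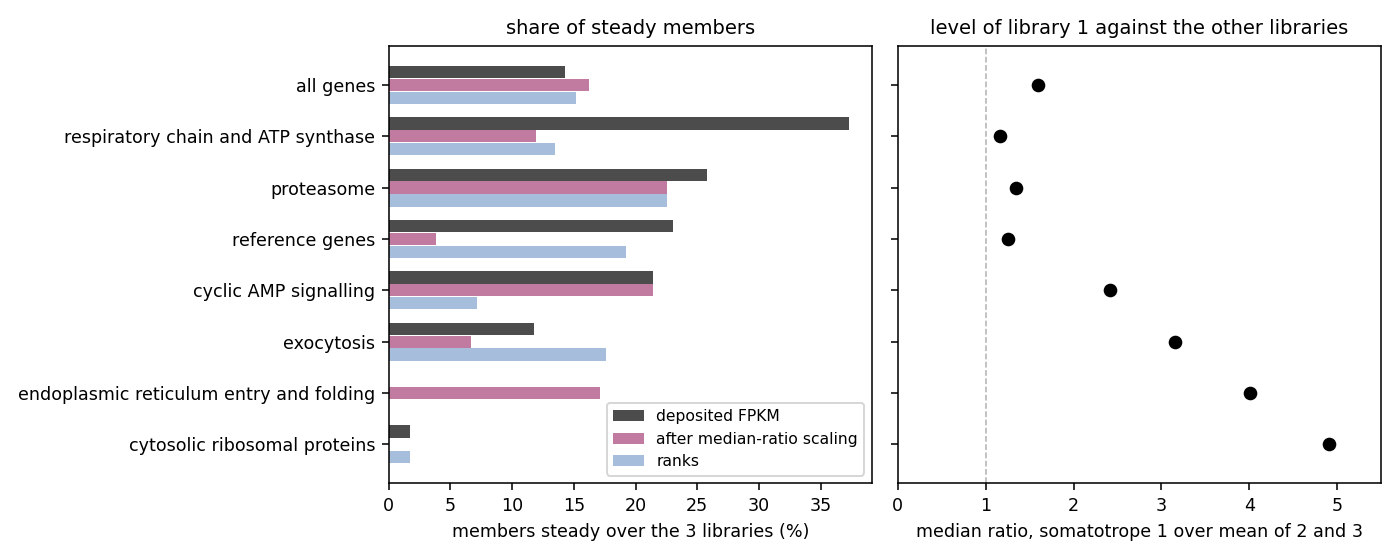
Left, percent of members with a mean of at least 10 FPKM that were steady over the 3 somatotropes, as deposited (dark), after median-ratio scaling (pink) and by ranks (pale blue). Right, median ratio of somatotrope 1 to the mean of somatotropes 2 and 3, from 1.16 for the respiratory chain to 4.91 for ribosomal proteins, with 1.60 for all genes.

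The most variable genes averaging 100 FPKM or more fell into few kinds. Hba-a1, an alpha-globin gene that shares sequence with Hba-a2, stood at 8.93, 42.0 and 1910 FPKM, a 214-fold range, and Pomc had a 61.5-fold range. H2-Ab1 had a 45.2-fold range. Eef1a1, a translation elongation factor, had a 29.2-fold range, with its highest value in somatotrope 1.

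Immediate early genes, which respond within minutes to stimulation and to handling, were highest in somatotrope 3. Of 17 such genes averaging 10 FPKM or more, 16 were highest there, against 9.80% of all genes of that level. Fos stood at 7.83, 19.2 and 276 FPKM, Dusp1, a phosphatase of MAP kinases, at 17.9, 34.7 and 231, and Egr1, a zinc finger factor, at 29.0, 19.1 and 100.3. Junb stood at 31.9, 37.6 and 155. None of the 17 was steady. The sources used here do not give the time from dissection to lysis, and its part in these levels was not tested.

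Marker lists of other cell types differed by library. The 26 leukocyte markers made up 0.149%, 5.30% and 2.52% of the summed FPKM of somatotropes 1, 2 and 3. Of the 26, 18 stood at 1 FPKM or more in each (69.2%, all genes 36.5%). Their defining member Ptprc, the pan-leukocyte antigen, stood at 1.60, 7.43 and 1.02 FPKM, and C1qb, a macrophage complement chain, at 17.6, 324 and 185. The 7 erythroid markers with a row made up 0.0096%, 0.0446% and 1.97%, with Slc4a1 at 0 in each library. Posterior lobe and neural markers were highest in somatotrope 3, where the neurohypophyseal hormones Oxt and Avp stood at 99.5 and 93.0 FPKM, against 0.653 and 0.135 in somatotrope 1 and 9.99 and 15.5 in somatotrope 2.

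Lactotrope markers other than Prl summed to 51.8, 14.7 and 32.8 FPKM. Crhbp, which binds corticotropin-releasing hormone, stood at 6.77, 7.43 and 13.5 FPKM, and Akr1c14, a steroid-metabolizing enzyme, at 28.2, 1.37 and 11.7. None of 12 endothelial markers reached 1 FPKM in each library (all genes 36.5%). Their highest value was 2.27 FPKM for Emcn in somatotrope 3, and Cdh5 stood at 0.0514, 0 and 0.217. Among 12 fibroblast and mural markers only Col1a2 reached 1 FPKM in each library, at 27.4, 7.26 and 8.997.

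**Figure D5:**
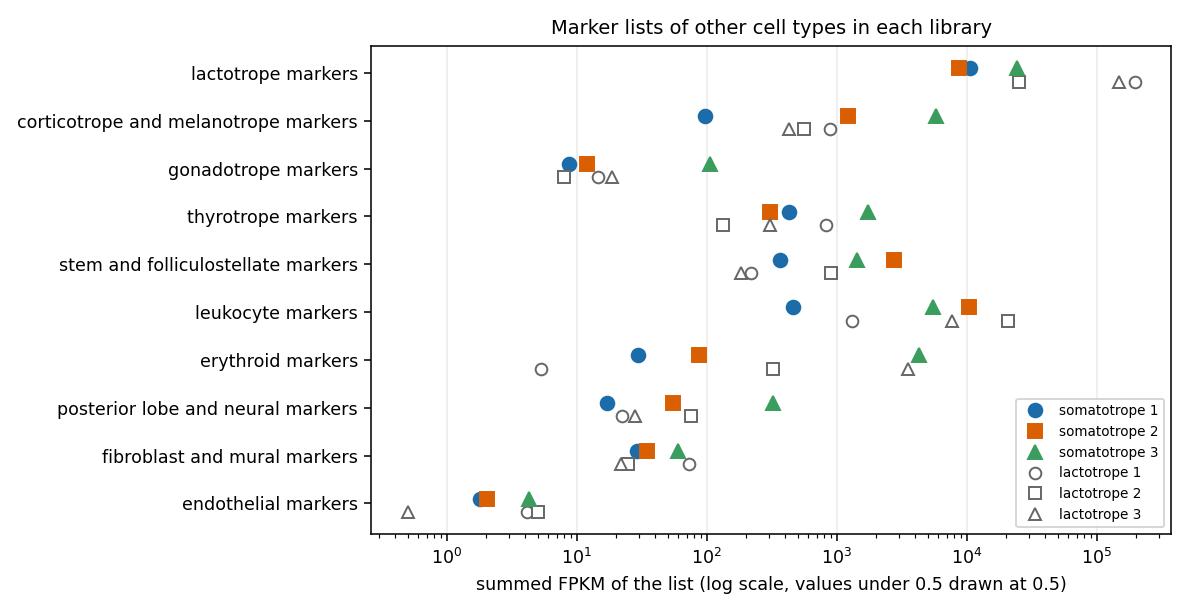
Summed FPKM (horizontal, log scale) of marker lists of other cell types in somatotropes 1 to 3 (filled) and lactotropes 1 to 3 (open), with circles, squares and triangles for libraries 1, 2 and 3. Leukocyte markers are lowest in somatotrope 1, erythroid, corticotrope and gonadotrope sums, the last with their hormone genes in them, are highest in somatotrope 3 among the somatotropes, and endothelial markers sum to under 6 FPKM in each library.

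Set against the lactotropes, few somatotrope genes stood apart in every library. Of 11642 genes that averaged 1 FPKM or more across the study, 292 (2.51%) were higher in each somatotrope than in each lactotrope and 134 (1.15%) lower. In the lists of secreted products these were Gh, Penk, Fgf13, Ptn, Ttr and Fstl1 on the higher side and Prl, Crhbp and Timp2 on the lower. Ttr was apart only narrowly, at 0.462 FPKM in somatotrope 2 against 0.418 in lactotrope 1. Among receptors they were Ghrhr and Nr1d1 on the higher side and Drd2 and Gabra2 on the lower. Among regulators, channels and exocytosis genes they were Isl1, Pax6, Nfib, Gnas, Pkig, Socs2, Syt5 and Kcnk1 on the higher side and Stx4a on the lower.

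With limma on log2(FPKM + 1) and Benjamini-Hochberg adjustment at 0.05, 0 of the 11642 genes (0%) passed, and 112 had an unadjusted p under 0.05. With the replicate number as a block, 0 (0%) passed again, and 1271 had an unadjusted p under 0.05. Ghrhr, whose level was 3.61 higher on the log2 scale in the somatotropes, had the smallest unadjusted limma p of both fits. Its limma adjusted p was 0.107 with the block. Without the block it was 0.99998, the same as that of Gh, so the adjustment singled out no gene there. Without somatotrope 1, 3 genes passed: Aldoc, a glycolytic enzyme gene in the stem and folliculostellate list, and the leukocyte lectin gene Cd209a and Crhbp. Of these 3, 2 were higher in the somatotropes.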

How the data were processed

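Per the labels' protocols, cells went from the sorter into Trizol LS, and the NuGen Ovation V2 kit amplified their RNA ahead of Illumina sequencing. TopHat, edgeR and bcl2fastq 2.17.1.14 are named with the mouse build mm9 per the submitters' processing notes. The authors deposited 1 table of FPKM values, and how fragments were counted over transcripts and which genes FPKM was scaled by are not given in the sources used here. FPKM is relative to all mapped fragments, so a very abundant gene lowers the others in its library.

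Of 30399 rows, 889 without a symbol were left out, and 25 symbols that a spreadsheet had turned into dates were kept as deposited. In somatotropes 2 and 3 and lactotrope 3, about 50% of values carried a 5th decimal and in the other columns none did. Fragment depth was read from low values of single-exon rows, of which 99.8% of 540 lay within 0.1 of a whole fragment in somatotrope 1, and 30.8% and 32.1% in somatotropes 2 and 3.

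Ranks, counts and ratios were computed with Python 3.11.15 and pandas 2.3.3. Somatotropes were compared with lactotropes by limma (version 3.58.1, R 4.3.3) with a mean-variance trend, on log2(FPKM + 1), for the genes averaging 1 FPKM or more. A fold change on that scale understates the change of low genes. The code was checked on simulated data. The simulated libraries varied independently, without shared deviations of same-numbered libraries. The check therefore does not show how many real changes the comparison would find in these data. With 3 libraries against 3 an exact permutation test of a single gene cannot give a p below 0.1, so none was run.

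Deviations of same-numbered libraries from their group means correlated over genes at 0.763, 0.613 and 0.341 for numbers 1 to 3. Somatotrope 3 was the least clear: its deviations correlated with those of lactotrope 2 at 0.233. Its log2 levels had a correlation of 0.848 with lactotrope 2 and 0.782 with lactotrope 3. The sample titles give the numbers, and their reading as pairs rests on these same data. A fit with the replicate block is given as an alternative. The 31 gene lists (832 entries, 1 without a row) and the members were chosen with earlier results of these data known. Named genes are the 4 markers, the 30 genes with the highest mean log2 level, in each list the 6 highest members (3 for other cell types), those at 0 and the 3 steadiest, the defining markers of other cell types, and the 15 steadiest and 10 most variable genes. Members of the lists of secreted products, receptors and regulators may also be named for their order. Xbp1, Actb, C1qb, Gpi1, Cct5, Cd209a, Ttr, Timp2, Stx4a and the genes steady on each scale were named after their values were seen. Promoter sequences are from RefSeq (GRCm38.p6), matched by symbol. Some genes that this rule would name are not reported here.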

Additional observations from a re-analysis of the deposited data

How the results depend on the processing

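Each group had 3 libraries. Of 40 levels of lists and named genes, leaving out somatotrope 1, 2 or 3 moved 3, 2 and 1 by more than the SD between libraries. This measure cannot show that a level is stable. Dropping 1 of 3 values always shifts their mean by less than their SD, so no single gene could be counted as moved. Without somatotrope 1, the log2 level of Pou1f1 went from 5.59 to 4.42 and that of Pomc from 9.77 to 11.4. The number of steady genes (528) was 1019 with a mean of at least 1 FPKM, 95 with a mean of at least 50 FPKM and 1225 with a ratio of up to 2, and it ranged from 1105 to 1539 when 1 somatotrope was left out, since a range over fewer libraries is narrower. The ranks in place of levels, an alternative chosen after seeing the data, gave 560. With the top 2 percent in place of the top 5 percent, 206 genes in place of 593 ranked there in each somatotrope. The limma comparison with lactotropes called 0 genes, and leaving out 1 library in turn gave 0 to 3 calls. The 3 came without somatotrope 1, and the cause was not tested. With the replicate block it called 0, with a smallest adjusted p of 0.107, and 0 with another pseudocount, without the filter and after median-ratio scaling (89, 192 and 189 genes at an unadjusted p under 0.05). The Ghrhr difference ranged from 2.73 to 4.86 on the log2 scale over these fits and kept its direction in each. The FPKM of somatotropes 2 and 3 have no known depth, so a value of 0 there has no stated upper limit.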

Other observations

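Among the 889 rows without a symbol, 868 matched a gene by accession in the RefSeq table, and 365 genes had no other row. The highest of them in the somatotropes was Gm11240, listed at 0, 149 and 124 FPKM in somatotropes 1, 2 and 3 and at 0, 88.1 and 56.6 in the lactotropes. Gm9054 stood at 0.532, 93.5 and 53.9 FPKM in the somatotropes. Both were near or at 0 in library 1 of each cell type. Mtfr1l, a regulator of mitochondrial shape, stood at 30.6, 35.2 and 14.2 FPKM. These rows entered no comparison.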
